A study of Homo sapiens with 6 samples.

Results

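The genes described here are the nuclear genes for subunits of oxidative phosphorylation, the machinery of the mitochondrial inner membrane that oxidises NADH and succinate, passes the electrons to oxygen and uses the resulting proton gradient to make ATP. They were chosen by name alone: genes called NDUFA, NDUFB, NDUFC, NDUFS or NDUFV with a number, SDHA to SDHD, UQCR with a suffix, CYC1, COX4 to COX8 with a suffix, and ATP5F, ATP5M or ATP5P with a suffix, leaving out pseudogene names. The rule found 85 of the 62703 genes in the deposited table, of which 36 belong to complex I (NADH dehydrogenase), 4 to complex II (succinate dehydrogenase), 10 to complex III (cytochrome bc complex), 17 to complex IV (cytochrome c oxidase) and 18 to complex V (ATP synthase). NDUFA4 was counted with complex IV, the complex it is now assigned to. A further 13 subunits are encoded by mitochondrial DNA and were described apart.

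RNA was sequenced from PANC-1, an established human pancreatic ductal carcinoma line, in 3 samples of DKK1-SE+/+ cells and 3 samples of DKK1-SE-/- cells. In the DKK1-SE-/- cells e1, a component enhancer of the super-enhancer near DKK1, was deleted from both alleles with CRISPR/Cas9, and the comparison asks which transcripts differ after the loss of e1. The study describes 1 DKK1-SE-/- line, so its 3 samples come from 1 clone, and effects of the deletion and differences between clones cannot be told apart. The labels call the samples biological replicates without saying whether they were grown as separate cultures. Total expected counts were 21822314, 16475810 and 18803154 in DKK1-SE+/+ replicates 1 to 3 and 17359835, 20098086 and 17804764 in DKK1-SE-/- replicates 1 to 3.

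DKK1, a secreted Wnt antagonist and the gene the enhancer is named for, was lower in the DKK1-SE-/- samples. Its level was 229.2, 245.8 and 198.5 TPM (transcript abundance scaled by length and library) in the DKK1-SE+/+ samples and 66.8, 79.8 and 82.7 TPM in the DKK1-SE-/- samples. On the log2 scale the change was -1.45 with a standard error (SE) of 0.112 in edgeR's quasi-likelihood test (Benjamini-Hochberg adjusted p = 6.16e-06, n = 3 and 3). Log2 fold changes throughout are DKK1-SE-/- over DKK1-SE+/+, and a gene is said to have risen or fallen where the p adjusted over 15179 tested genes was under 0.05. Of 6 ductal markers, 3 rose and 2 fell, beside 19.8% and 19.5% of all tested genes. Mean TPM of the keratin KRT19 was 53.9 ± 5.79 (SD, n = 3) against 171.9 ± 25.9, of KRT8 957.0 ± 27.2 against 1560.0 ± 171.3 and of KRT18 856.4 ± 12.9 against 1213.0 ± 74.2, while EPCAM and SOX9 fell (log2 fold changes -0.67 and -0.39, EPCAM not called at -0.52 with an offset for GC content, adjusted p 0.0649). EPCAM kept its call without DKK1-SE-/- replicate 3 alone of the single libraries, with values of -0.76 to -0.53 without each of the others, and SOX9 lost its call without DKK1-SE+/+ replicate 2 or 3 or DKK1-SE-/- replicate 2 (-0.36, -0.32 and -0.33). KRT7 was not called (0.47), except without DKK1-SE-/- replicate 3 (0.61). Of 4 mesenchymal markers, CDH2 fell from 19.3 ± 0.210 to 1.37 ± 0.262 TPM, ZEB1 and VIM fell (log2 fold changes -1.27 and -0.47) and FN1 rose (2.70 from counts, with mean TPM of 1.58 and 2.38, and not called at 0.34 in limma-trend on log2(TPM + 1)). None of the 5 acinar, 4 islet, 3 endothelial or 4 fibroblast markers had enough counts to be tested, and of 5 immune markers CD68 alone was tested and rose (log2 fold change 0.76), with the pan-leukocyte marker PTPRC at no more than 0.04 TPM. In bulk RNA a change in the share of cells in some state and a change in RNA per cell cannot be told apart.

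A library in each group stood apart for the genes described here. DKK1-SE+/+ replicate 1 had the highest value of its group for 69 of the 78 tested oxidative phosphorylation genes, and DKK1-SE-/- replicate 2 had the highest of its group for 71. Deviations of log2 CPM (counts scaled to library size) from the mean of the 6 samples had a median over the 78 genes of 0.20 and 0.35 in these libraries. In the other libraries that median was -0.10 and -0.08 (DKK1-SE+/+ replicates 2 and 3) and -0.11 and -0.21 (DKK1-SE-/- replicates 1 and 3). The 81 tested cytosolic ribosomal protein genes, which code for another set of short and abundant messages, had medians of 0.27 and 0.34 in the same libraries and of -0.35 in DKK1-SE-/- replicate 3. The share of expected counts on all 85 genes was 0.785%, 0.652% and 0.648% in the DKK1-SE+/+ samples and 0.595%, 0.788% and 0.573% in the DKK1-SE-/- samples, so the groups overlapped. The median transcript length was 904 bases for the tested members against 2967 for all tested genes.

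GC content also moved with the libraries. Across 15089 genes outside the list, which are not independent replicates, the Spearman rho of a gene's deviation with its GC content was -0.43, -0.41 and -0.22 in the DKK1-SE+/+ samples and 0.59, 0.38 and -0.14 in the DKK1-SE-/- samples. Across all tested genes the log2 fold change and GC content had a rho of 0.41, and of -0.01 after an offset for GC content was fitted in each library. Across the 78 members these values were 0.29 and -0.44. With the offset the log2 fold change of 20 of the 78 changed sign. The part of GC content in the members' differences was not tested, and values with the offset stand beside the named genes whose call it ended or whose sign it turned.

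Of 78 tested members, 4 rose (NDUFB4, CYC1, COX8A and NDUFB10) and 4 fell (ATP5PF, ATP5PO, UQCRC1 and NDUFS1), which is 10.3% against 39.3% of all 15179 tested genes. By direction this was 5.13% higher, against 19.8% of all genes, and 5.13% lower, against 19.5%. The members' log2 fold changes ran from -1.09 to 0.84 around a median of 0.04, with 44 above 0 and 34 below, and the median of all tested genes was 0.03. The 95% confidence interval lay within a 2-fold change either way for 71 of the 78 and within a 1.5-fold change for 40. The members were abundant, with a median of 151.1 TPM over the 6 samples against 9.73 TPM for all tested genes, and 77 of the 78 averaged at least 10 TPM. Their summed level was 19043.5, 15345.0 and 15011.2 TPM in the DKK1-SE+/+ samples and 12598.4, 17978.7 and 12935.3 TPM in the DKK1-SE-/- samples, so 1 DKK1-SE-/- library lay inside the range of the DKK1-SE+/+ libraries and 2 lay below it.

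**Figure D1:**
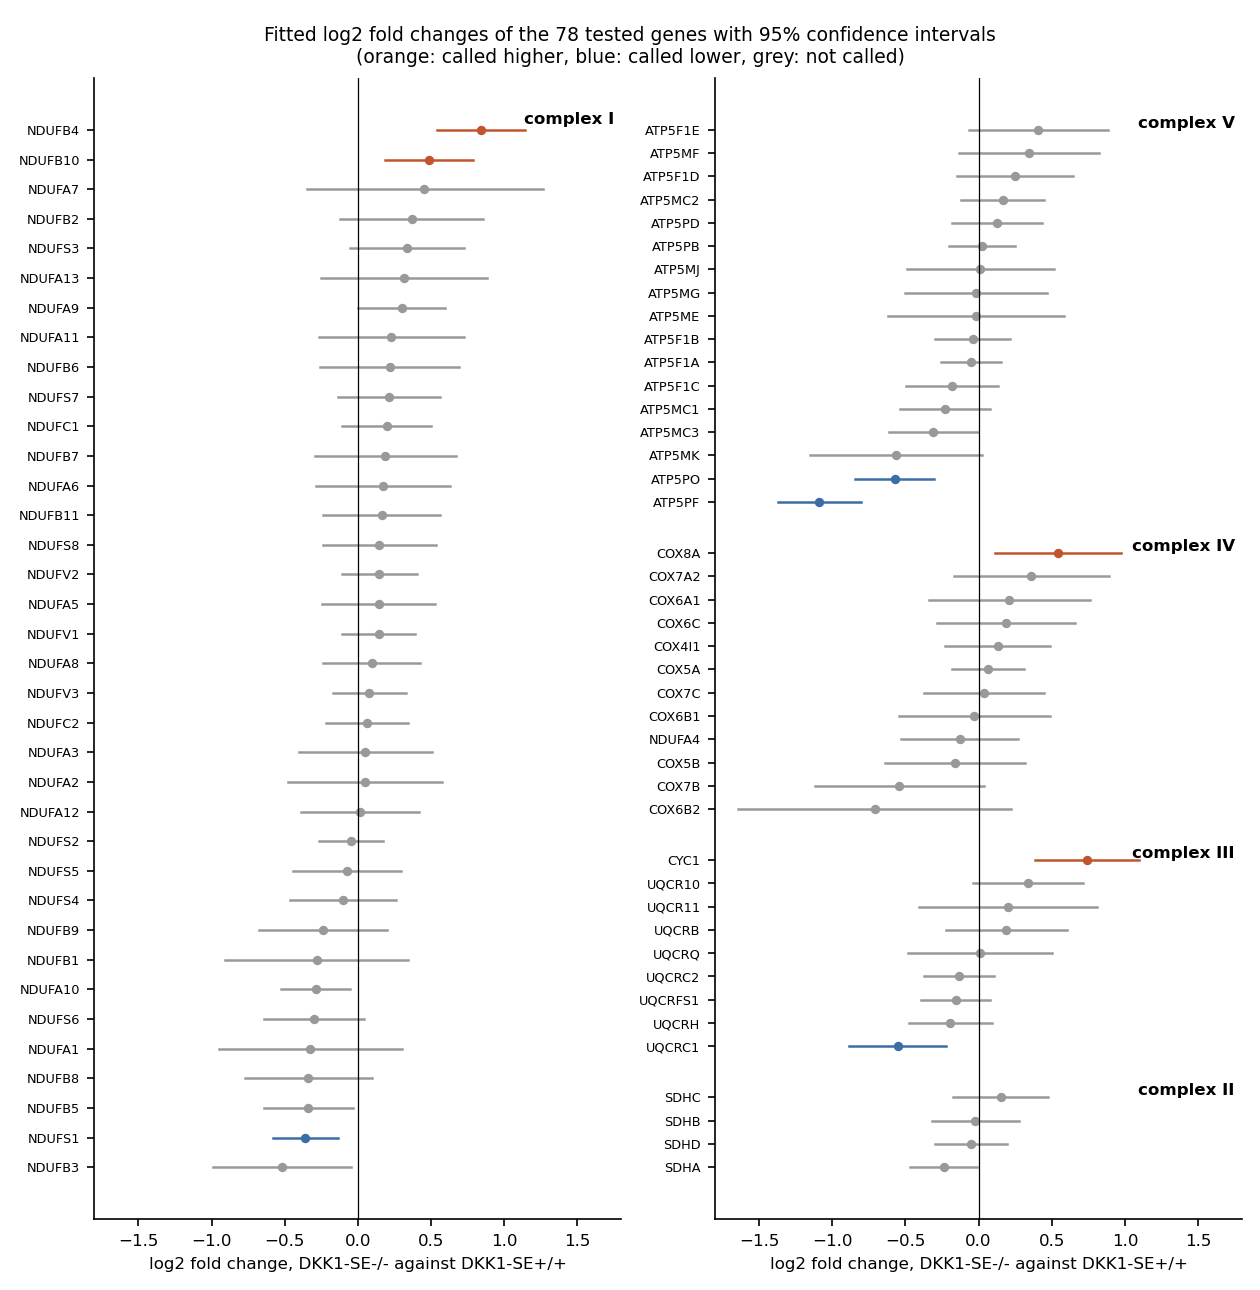
Log2 fold change (x axis, DKK1-SE-/- over DKK1-SE+/+) with its 95% confidence interval for each of the 78 tested genes (y axis), grouped by complex. Orange marks the 4 genes that rose, blue the 4 that fell and grey those not called, and 71 intervals lie within a 2-fold change.

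The counts moved with the library left out and with the scaling. Leaving out 1 library at a time gave between 2 and 15 members higher and between 2 and 14 lower. Without DKK1-SE-/- replicate 2, 2 members (2.56%, against 15.1% of all genes) were higher and 14 (17.9%, against 15.4%) were lower, with a median of -0.12. Without DKK1-SE-/- replicate 3, 15 (19.2%, against 24.1%) were higher and 5 (6.41%, against 25.4%) were lower, with a median of 0.13. So without DKK1-SE-/- replicate 2 the share of members called lower was near that of all genes, unlike in the full set. Leaving out DKK1-SE-/- replicate 1 gave 3 higher and 6 lower, against 16.5% and 18.1% of all genes. Leaving out DKK1-SE+/+ replicate 1 gave 3 and 3 (all genes 13.9% and 14.1%), replicate 2 gave 2 and 3 (13.1% and 13.3%) and replicate 3 gave 3 and 2 (15.3% and 15.2%). The members' median was 0.17, 0.003 and -0.02 without DKK1-SE+/+ replicates 1, 2 and 3, and 0.08 without DKK1-SE-/- replicate 1. With both libraries that stood apart left out, 1 member was higher and 4 were lower (all genes 8.08% and 8.54%), NDUFB4, ATP5PF and ATP5PO kept their calls, and ATP5MK and COX7B were called lower, genes chosen after their values were seen. With the GC-content offset, 10 members (12.8%, against 23.7% of all genes) were higher and 7 (8.97%, against 18.1%) were lower. On log2(TPM + 1) with limma-trend, 2 were higher (2.56%, against 9.82%) and 11 lower (14.1%, against 17.6%), and the median of all tested genes moved to -0.08 while that of the members moved to -0.14. With no filter on low counts, 6 members (7.69%) were higher and 11 (14.1%) were lower, against 19.2% and 20.7% of the same 15179 genes. With a pseudocount of 0.1 in limma-trend the median of all tested genes was -0.11 and that of the members -0.14. Scaling by library size alone gave 3 higher and 6 lower (all genes 16.5% and 21.3%). Of the called members 4 of 8 were higher in the edgeR fit, 33.3% when scaled by library size alone and 15.4% with limma-trend on log2(TPM + 1), against 50.5%, 43.5% and 35.8% of all called genes.

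TPM separated the groups for 20 members: in 2 (2.56%, against 17.5% of all tested genes) every DKK1-SE-/- sample was above every DKK1-SE+/+ sample, and in 18 (23.1%, against 26.7%) every one was below. The study's limits were an unadjusted p under 0.05 and a fold change of 1.2, and its text does not name the scale of the fold. Read on the log2 scale, they were passed by 8.66% of all tested genes and by 0 members in edgeR and 0 in DESeq2, and by 1 member, ATP5PF, in limma-trend on log2(TPM + 1). Read on the linear scale, they were passed in edgeR by 5 members higher (6.41%, against 24.3%) and 8 lower (10.3%, against 23.3%). Of all tested genes, 753 higher and 561 lower passed on the log2 scale, and 3696 and 3531 on the linear scale. The totals that the study reports lie nearer to those of the log2 scale. At an unadjusted p under 0.05 alone, 14 members (17.9%) passed in edgeR, against 48.3% of all genes, and 14 in DESeq2, against 46.3%.

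**Figure D2:**
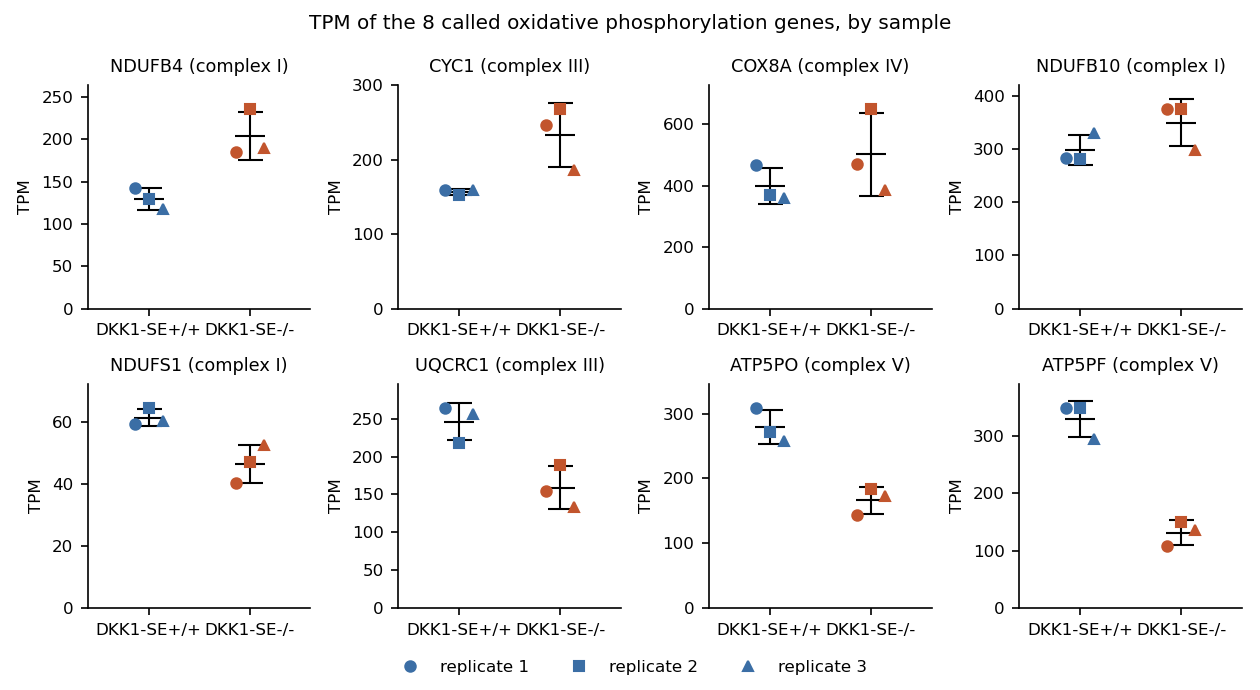
TPM (y axis) of the 8 genes that rose or fell, in the 3 samples of each group (x axis), with the mean and SD as bars and a different marker for each replicate number. The groups do not overlap for 6 of them and overlap for COX8A and NDUFB10.

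Complex I takes electrons from NADH through a peripheral arm in the matrix and pumps protons through a membrane arm. Of its 36 tested nuclear subunits 2 rose (all genes 19.8%), 1 fell (19.5%) and 33 were not called. The median log2 fold change of complex I was 0.12, and from -0.08 to 0.23 without single libraries, the negative value being without DKK1-SE-/- replicate 2. Its counts moved with the library left out, as did those of all genes. Without DKK1-SE-/- replicate 2, 1 was higher and 8 were lower (all genes 15.1% and 15.4%). Without DKK1-SE-/- replicate 3, 11 were higher and 2 lower (24.1% and 25.4%), and without DKK1-SE-/- replicate 1 2 and 2 (16.5% and 18.1%). They were 1 and 0 without DKK1-SE+/+ replicate 1 (13.9% and 14.1%) or 2 (13.1% and 13.3%), and 2 and 0 without DKK1-SE+/+ replicate 3 (15.3% and 15.2%). With limma-trend on log2(TPM + 1) 1 was higher and 5 were lower (9.82% and 17.6%), with a median of -0.09. NDUFB4 (ENSG00000065518, chr3:120596328-120602507 in hg38, plus strand), an accessory subunit of the membrane arm, was at 143.1, 129.0 and 117.7 TPM in the DKK1-SE+/+ samples and at 185.2, 236.5 and 190.1 TPM in the DKK1-SE-/- samples. Each DKK1-SE-/- sample was above each DKK1-SE+/+ sample. Its log2 fold change was 0.84 (SE 0.137, edgeR adjusted p = 0.000844, n = 3 and 3), and it was called in each of the 18 alternative fits, all judged by adjusted p, with log2 fold changes from 0.64 to 1.04.

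NDUFB10 (ENSG00000140990, chr16:1959538-1961975, plus strand), another membrane-arm accessory subunit, was at 282.2, 280.7 and 330.4 TPM against 375.9, 374.1 and 298.7 TPM. DKK1-SE-/- replicate 3 lay within the spread of DKK1-SE+/+ values, so the groups overlapped. NDUFB10 had a log2 fold change of 0.49 (SE 0.138, edgeR adjusted p = 0.0164, n = 3 and 3). With the GC-content offset it was at 0.28 and called. Adjusted p was 0.0675 without DKK1-SE+/+ replicate 1 (log2 fold change 0.45), 0.0706 without DKK1-SE+/+ replicate 2 (0.46) and 0.0677 without DKK1-SE-/- replicate 2 (0.42), 0.196 with limma-trend on log2(TPM + 1) (0.23) and 0.201 without both libraries that stood apart (0.38), within a range of 0.000521 to 0.201 over the alternatives.

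NDUFS1 (ENSG00000023228, chr2:206114817-206159509, minus strand), the iron-sulfur subunit of the peripheral arm that binds several clusters, was at 59.2, 64.4 and 60.2 TPM against 40.1, 46.9 and 52.3 TPM. Every DKK1-SE-/- sample was below every DKK1-SE+/+ sample. It fell by 0.36 on the log2 scale (SE 0.101, edgeR adjusted p = 0.0157, n = 3 and 3). With the GC-content offset the log2 fold change was -0.08 and adjusted p was 0.347. Leaving out DKK1-SE+/+ replicate 1, 2 or 3 gave adjusted p values of 0.0580, 0.0770 and 0.0581 with log2 fold changes of -0.36, -0.35 and -0.36, within a range of 0.00213 to 0.490 over the alternatives. The most abundant complex I subunits were the accessory subunits NDUFS5 and NDUFA1. NDUFS5 was at 741.8, 554.0 and 569.1 TPM against 411.0, 633.8 and 497.2 TPM (log2 fold change -0.08, not called). NDUFA1 was at 764.7, 483.8 and 388.4 TPM against 260.0, 546.8 and 315.2 TPM (log2 fold change -0.32, SE 0.284, not called), and in both genes the highest sample of each group was the library that stood apart. With no filter on low counts NDUFA1 was called lower (-0.34).

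Complex II links the citric acid cycle to the electron transport chain, and all 4 of its subunits are nuclear. The median log2 fold change of complex II was -0.04, and edgeR and DESeq2 each called 0 of the 4, with 1 at an unadjusted p under 0.05 in either. Of all tested genes edgeR called 39.3%, and 48.3% had an unadjusted p under 0.05 in edgeR. SDHA, the flavoprotein that oxidises succinate, was at 71.9, 75.3 and 76.7 TPM against 61.5, 56.0 and 58.0 TPM. The DKK1-SE-/- samples were all lower, with a log2 fold change of -0.24 (SE 0.105, edgeR adjusted p = 0.0933, n = 3 and 3). SDHA was called lower without DKK1-SE-/- replicate 1 (-0.31), with library size alone (-0.31), with limma-trend on log2(TPM + 1) (-0.35) and with the GC-content (-0.34) or length offset (-0.26). Its 6 named pseudogenes held 2391 counts over the 6 samples. The iron-sulfur subunit SDHB was at 207.6 ± 18.9 TPM against 182.5 ± 22.9 TPM (SD, n = 3 and 3, log2 fold change -0.02, and 0.08 with the GC-content offset). The membrane anchor SDHC was at 117.4 against 130.8 TPM (0.15), and the other anchor SDHD at 83.4, 77.8 and 73.2 against 58.1, 66.5 and 79.4 TPM (-0.05). SDHD was called higher with the GC-content offset (log2 fold change 0.36). The confidence intervals of all 4 lay within a 1.5-fold change.

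Complex III passes electrons from ubiquinol to cytochrome c. Of 9 tested subunits 1 rose (all genes 19.8%), 1 fell (19.5%) and 7 were not called. The median log2 fold change of complex III was 0.01, and from -0.19 to 0.18 without single libraries. Leaving out DKK1-SE-/- replicate 3, 2 were higher (all genes 24.1%), UQCR10 (0.45, edgeR adjusted p 0.0232, chosen after its values were seen) being gained. Leaving out DKK1-SE+/+ replicate 3, 0 were lower (15.2%), and without both libraries that stood apart there were 0 and 0 (8.08% and 8.54%). CYC1 (ENSG00000179091, chr8:144095039-144097525, plus strand), the heme-bearing cytochrome that hands electrons to cytochrome c, was at 158.9, 152.4 and 158.6 TPM in the DKK1-SE+/+ samples and at 246.6, 268.5 and 185.6 TPM in the DKK1-SE-/- samples. All DKK1-SE-/- samples were above all DKK1-SE+/+ samples, and the DKK1-SE+/+ samples differed little. CYC1 had a log2 fold change of 0.74 (SE 0.161, edgeR adjusted p = 0.00432, n = 3 and 3). Over the alternatives CYC1 ran from 0.465 to 0.906, with 0.476 under the GC-content offset. It was called in 17 of 18 alternatives, and without both libraries that stood apart it was 0.62 with an adjusted p of 0.0692, the highest over the alternatives, the lowest being 1.60e-07.

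UQCRC1 (ENSG00000010256, chr3:48599002-48610976, minus strand), a core protein on the matrix side of complex III, was at 264.7, 218.6 and 256.0 TPM against 154.0, 189.1 and 133.1 TPM. All DKK1-SE-/- samples were lower. It fell by 0.55 on the log2 scale (SE 0.150, edgeR adjusted p = 0.0137, n = 3 and 3). Without DKK1-SE+/+ replicate 3 the log2 fold change was -0.50 with an adjusted p of 0.0511, and without both libraries that stood apart -0.67 with 0.0516, the highest over the alternatives against a lowest of 5.22e-05. UQCRH, the hinge protein of the complex and its most abundant subunit, was at 861.6, 775.0 and 711.8 TPM against 502.7, 687.5 and 609.8 TPM (log2 fold change -0.19, edgeR adjusted p = 0.256). Its TPM groups did not overlap although it was not called. The intronless copy UQCRHL was at 0.03 to 1.26 TPM and was not tested.

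Complex IV reduces oxygen to water, and several of its nuclear subunits exist as isoforms of separate genes with different tissue use. Of 12 tested genes 1 rose, 0 fell (0 also in DESeq2 and at an unadjusted p under 0.05 in both tools) and 11 were not called, and the median log2 fold change of complex IV was 0.05, and from -0.19 to 0.20 without single libraries. Of all tested genes, 19.8% rose and 19.5% fell. COX8A (ENSG00000176340, chr11:63974620-63976543, plus strand), a small subunit of the membrane core, was at 465.7, 370.7 and 361.3 TPM against 470.8, 650.7 and 386.5 TPM. The groups overlapped, and DKK1-SE-/- replicate 2 was far above the rest. The log2 fold change was 0.54 (SE 0.196, edgeR adjusted p = 0.0465, n = 3 and 3), and the call held in 8 of 18 alternatives. Adjusted p was 0.142 without DKK1-SE+/+ replicate 2, 0.132 without DKK1-SE+/+ replicate 3, 0.0739 without DKK1-SE-/- replicate 1 and 0.220 without DKK1-SE-/- replicate 2, with log2 fold changes of 0.49, 0.48, 0.53 and 0.30. It was 0.0903 with library size alone (log2 fold change 0.47), 0.1403 with the GC-content offset (0.34) and 0.252 with limma-trend on log2(TPM + 1) (0.31), within a range of 0.000397 to 0.252 over the alternatives.

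COX6B1, on the intermembrane side of complex IV, was its most abundant nuclear subunit, at 871.6, 612.8 and 560.4 TPM against 457.7, 811.1 and 468.3 TPM (log2 fold change -0.03). The groups overlapped widely. In each isoform pair 1 gene carried nearly all of the RNA. COX4I1 was at 411.4 ± 35.3 and 397.2 ± 85.7 TPM (SD, n = 3 and 3, log2 fold change 0.13) and COX6A1 at 418.9 and 420.6 TPM (0.21), and COX4I2 and COX6A2, the latter of heart and skeletal muscle, were at 0 in all samples. COX7A2 was at 339.8 ± 92.8 and 374.9 ± 135.8 TPM (0.36, not called, but called at 0.34 with no filter on low counts). Its muscle isoform COX7A1 was between 0 and 0.77 TPM and not tested. COX7B was at 81.3 ± 17.9 and 53.8 ± 18.04 TPM (log2 fold change -0.54, edgeR adjusted p = 0.125, and called at -0.94 without DKK1-SE-/- replicate 2) and its testis isoform COX7B2 at 0, as was COX8C. COX7B was also called with no filter on low counts (-0.56), with the replicate block (-0.58) and without both libraries that stood apart (-0.69). COX6B2, known from testis, was at 0.73, 0.77 and 0.83 TPM against 0.21, 12.2 and 0.55 TPM. Its expected counts in DKK1-SE-/- replicate 2 were 10.6, beside 5.00 and 10.1 in the other DKK1-SE-/- samples, so the high TPM of that sample had no match in its counts (log2 fold change -0.71, SE 0.425, edgeR adjusted p = 0.207).

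Of the 85 genes 7 were not tested. COX4I2, COX6A2, COX7B2, COX8C and ATP5MGL had no count in any sample, and 0 allows up to 3 counts, or 0.138 CPM in the deepest and 0.182 CPM in the shallowest library, counting error only. COX7A1 and UQCRHL were below the count minimum.

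Complex V is a rotary enzyme in which a peripheral stalk holds the catalytic head against the rotating shaft. Of 17 tested subunits 2 fell (all genes 19.5%), 0 rose (all genes 19.8%, and 0 subunits also in DESeq2 and at an unadjusted p under 0.05 in both tools) and 15 were not called. The median log2 fold change of complex V was -0.02. Without DKK1-SE-/- replicate 2, 4 were lower (all genes 15.4%), and without DKK1-SE-/- replicate 3, 1 was higher (24.1%). Both genes that fell code for subunits of the peripheral stalk, whose other subunits ATP5PB (0.02) and ATP5PD (0.13), chosen after their values were seen, were not called, and ATP5PB was called higher with the GC-content offset (0.44). ATP5PF (ENSG00000154723, chr21:25716503-25735673, minus strand), known as coupling factor, was at 348.7, 347.4 and 293.7 TPM against 107.7, 150.2 and 135.7 TPM. No DKK1-SE-/- sample came near the lowest DKK1-SE+/+ sample. It fell by 1.09 on the log2 scale (SE 0.130, edgeR adjusted p = 0.000117, n = 3 and 3), the largest change of the 78, and was called in all 18 alternatives with log2 fold changes from -1.34 to -0.77.

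ATP5PO (ENSG00000241837, chr21:33903453-33915814, minus strand), the subunit that confers oligomycin sensitivity and joins the stalk to the head, was at 309.0, 271.2 and 257.8 TPM against 143.0, 183.0 and 172.7 TPM. Again all DKK1-SE-/- samples were lower. It fell by 0.57 on the log2 scale (SE 0.122, edgeR adjusted p = 0.00387, n = 3 and 3) and was called in all 18 alternatives, from -0.75 to -0.49. The catalytic subunit ATP5F1B, the most abundant, was at 878.6, 808.2 and 791.0 TPM against 698.3, 782.3 and 675.4 TPM (log2 fold change -0.04, edgeR adjusted p = 0.808). Its TPM groups did not overlap, with no call from the counts. ATP5MF, a small membrane subunit, was at 679.1, 472.4 and 407.5 TPM against 466.1, 736.5 and 466.6 TPM (0.34, not called). The genes ATP5MC1, ATP5MC2 and ATP5MC3 code for the same mature subunit of the rotor ring. Their mean TPM were 469.3 against 354.1 (log2 fold change -0.23), 433.7 against 428.1 (0.16) and 224.5 against 165.4 (-0.31, edgeR adjusted p = 0.0965), none called. ATP5MG, another membrane subunit, was at 139.5 against 124.3 TPM (-0.02). ATP5MC3 was at 0.19 and ATP5MG at 0.41 with the GC-content offset, the opposite sign, and neither was called. ATP5MC1 was called lower with the GC-content (-0.37) and length (-0.29) offsets, and ATP5MC3 without DKK1-SE-/- replicate 2 (-0.46), in both limma-trend fits (-0.44) and with no filter on low counts (-0.33). The complex V median was -0.32 without DKK1-SE-/- replicate 2, and from -0.09 to 0.06 without any other single library.

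Promoter sequence was examined because nuclear respiratory genes are known to share binding motifs for NRF1, for ETS proteins such as GABPA, and for YY1. RefSeq windows of 300 bases on GRCh38.p14, with 250 before the start and 50 after it, were found for 67 of the 85 genes (79 windows) and were searched on both strands, beside 35116 windows of all genes. GCGCNTGCG (NRF1) was in 32.9% of member windows and 7.47% of all windows, CCGGAAG (ETS) in 27.8% and 10.3%, AAGATGGCG (YY1) in 12.7% and 1.748%, and CCAAT in 34.2% and 34.6%. Of the 7 called genes with a window, the NRF1 letters were found for ATP5PF, ATP5PO, NDUFB4 and UQCRC1, the ETS letters for ATP5PF, COX8A and NDUFS1, the YY1 letters for ATP5PF and UQCRC1, and CCAAT for ATP5PF and COX8A. Genes that rose and genes that fell both held NRF1 and ETS letters. Shown are the bases upstream of a start for a pair of genes that rose and a pair that fell, with matches to the 4 motifs in capitals, 5′ to 3′ along the gene. They are NDUFB4 at chr3:120596086-120596327 (plus strand), COX8A at chr11:63974370-63974619 (plus), ATP5PF at chr21:25734905-25734934 (minus) and ATP5PO at chr21:33915805-33915834 (minus). The stretches shown are of unequal length: 242 bases for NDUFB4, 250 for COX8A and 30 each for ATP5PF and ATP5PO. Matches outside them are not printed, among them ETS and YY1 letters for ATP5PF and NRF1 letters for ATP5PO and NDUFB4. ATP5PF had 2 windows, and its NRF1 and CCAAT letters were not in the window shown. The printed matches therefore cannot be compared between genes. A match describes letters and says nothing of binding.
NDUFB4: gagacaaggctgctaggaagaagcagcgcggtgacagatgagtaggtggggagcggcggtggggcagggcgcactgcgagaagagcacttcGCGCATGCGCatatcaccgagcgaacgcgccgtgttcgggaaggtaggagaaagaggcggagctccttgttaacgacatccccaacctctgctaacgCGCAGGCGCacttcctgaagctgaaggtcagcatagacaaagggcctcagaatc
COX8A: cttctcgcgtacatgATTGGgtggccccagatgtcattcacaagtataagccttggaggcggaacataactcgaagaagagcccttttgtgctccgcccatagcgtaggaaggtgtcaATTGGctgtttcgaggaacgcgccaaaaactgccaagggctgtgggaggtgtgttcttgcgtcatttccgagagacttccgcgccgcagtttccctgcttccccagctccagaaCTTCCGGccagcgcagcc
ATP5PF: gcgtgtgggggcggagccagggCCGGAAGt
ATP5PO: caacgcGCGCGTGCGcccttgcgcgtttct

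The direction of each gene was set beside that of the genes around it, a description chosen after the values were seen. For each member the median log2 fold change of tested genes within 5 Mb, other members left out, was taken. That median had the member's sign for 59 of 78 members (75.6%), against 70.2% of all 15148 placed tested genes. It had the sign of 8 of the 8 called members, against 78.8% of all called genes. Whether the members' shares differ from those of genes at large was not tested. The 8 of 8 held within 2 Mb, and for the same 8 genes with the GC-content offset, although COX8A and NDUFS1 were not called with it. The signs of the other members called with the offset were not counted here. Across the 78 members, which share neighbours and the same 6 libraries, the Spearman rho of the log2 fold change with the neighbours' median was 0.75, within 2 Mb 0.75, and with the GC-content offset 0.57, and across all placed genes it was 0.47.

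Around ATP5PF, 9 of 10 tested neighbours fell and 0 rose (median log2 fold change -1.08), although the median over the 172 tested genes of that chromosome was 0.03. Around ATP5PO, 29 of 55 fell and 2 rose (median -0.48). Around NDUFB4, 33 of 50 rose and 2 fell (0.68), and around CYC1, 66 of 91 rose and 0 fell (0.75). In these neighbourhoods the median lay near the member's own value. Around the remaining called members, 114 of 231 rose and 6 fell around COX8A (0.46), 92 of 176 rose and 1 fell around NDUFB10 (0.48), 27 of 41 fell and 1 rose around NDUFS1 (-0.62), and 64 of 161 fell and 10 rose around UQCRC1 (-0.35). Why neighbours moved together was not tested.

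**Figure D3:**
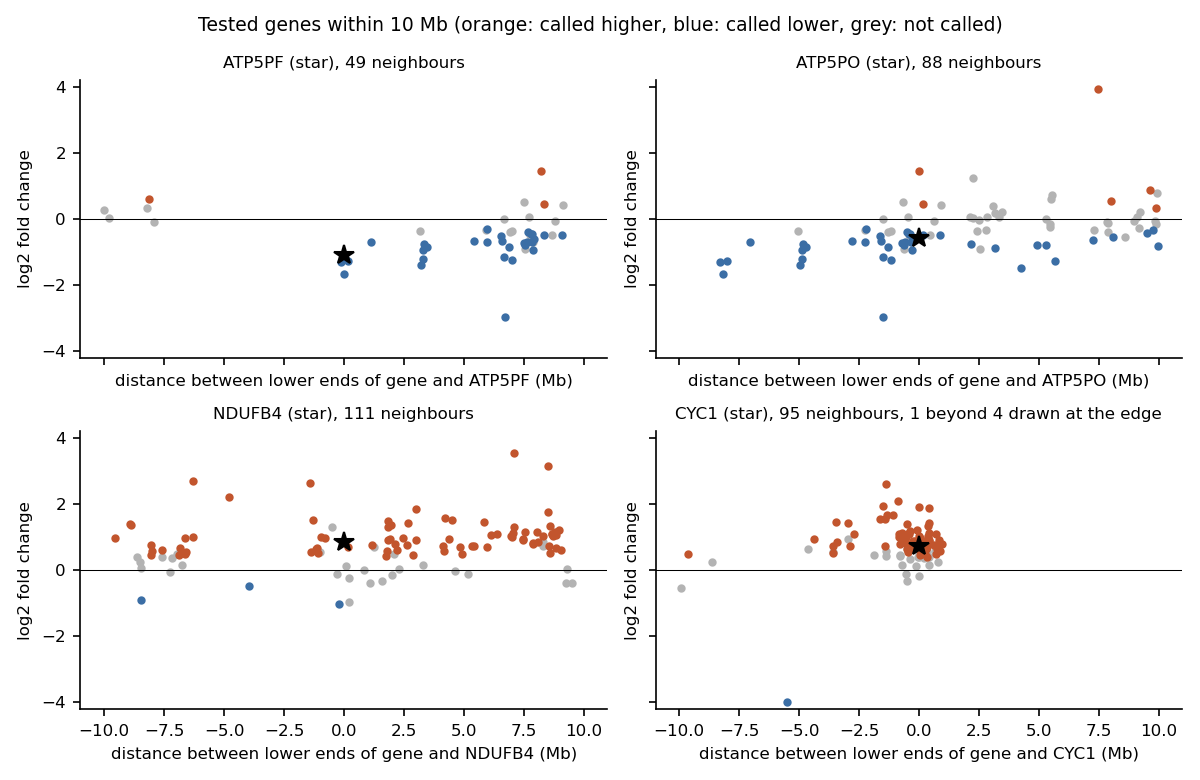
Log2 fold change (y axis) of tested genes within 10 Mb of ATP5PF, ATP5PO, NDUFB4 and CYC1 by distance in Mb (x axis), with the member as a star, genes that rose in orange, that fell in blue and not called in grey. Within 5 Mb the neighbours' medians are -1.08, -0.48, 0.68 and 0.75.

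Of the listed genes other than cytosolic ribosomal proteins, 15 lay within 5 Mb of a called member, of which 9 were called in the member's direction, 1 in the other and 5 not. Genes of any kind around these members were often called in the member's direction, as given above. Whether the listed genes differ from them was not tested. GABPA, a subunit of an ETS-family factor that binds many respiratory promoters, is the gene next to ATP5PF on the opposite strand, with annotated starts 68 bases apart at the nearest. It was at 16.2, 15.6 and 13.3 TPM against 2.80, 3.59 and 6.35 TPM and fell by 1.67 on the log2 scale (SE 0.209, edgeR adjusted p = 0.000163, n = 3 and 3). MRPL39, a mitochondrial ribosomal protein 0.131 Mb from ATP5PF, fell by 1.30. The copper chaperone COX17, 0.942 Mb from NDUFB4, and the complex I assembly factor TIMMDC1 (1.10 Mb) rose. Near COX8A, ESRRA (0.331 Mb), SDHAF2 (2.55 Mb), MRPL49 (1.15 Mb) and MRPL16 (4.17 Mb) rose, as did MRPL28 near NDUFB10 (1.59 Mb). MRPS6, 0.170 Mb from ATP5PO, went the other way and rose (log2 fold change 0.44). Not called were UQCC3 (0.54), MRPL11 (0.09) and MRPL21 (0.19) near COX8A, MRPS34 near NDUFB10 (0.41) and NDUFAF3 near UQCRC1 (-0.21). Of 4 cytosolic ribosomal protein genes within 5 Mb, RPL8, 0.695 Mb from CYC1, rose (0.49, and 0.19 with the GC-content offset, adjusted p 0.239), RPL29, 3.40 Mb from UQCRC1, fell (-0.62), and FAU (0.51) and RPS2 (0.31) were not called. RPL8 lost its call without DKK1-SE+/+ replicate 2 or 3 or DKK1-SE-/- replicate 2 (0.43, 0.49 and 0.32), and RPL29 without DKK1-SE+/+ replicate 1 (-0.49). UQCC3 (0.69), MRPS34 (0.59), FAU (0.66) and RPS2 (0.51) were called without DKK1-SE-/- replicate 3, as was FAU without DKK1-SE+/+ replicate 1 (0.68). All 4 were also called with no filter on low counts, and FAU in DESeq2, with the replicate block and with the length offset. MRPL49, MRPS6, UQCC3, MRPL11, MRPL21, MRPS34, NDUFAF3, RPL8, RPL29, FAU and RPS2 were chosen after their values were seen.

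Assembly factors, which build the complexes without staying in them, were called in both directions: 8 of 58 rose and 7 fell, beside 19.8% and 19.5% of all tested genes, with a median log2 fold change of 0.06. Without DKK1-SE+/+ replicate 2 there were 3 higher and 6 lower (all genes 13.1% and 13.3%). Without DKK1-SE-/- replicate 2 there were 6 and 6 with a median of -0.09 (all genes 15.1% and 15.4%), and without DKK1-SE-/- replicate 3 12 and 9 (24.1% and 25.4%). Without both libraries that stood apart there were 2 and 4 (all genes 8.08% and 8.54%). For complex I, 5 of 18 rose and 2 fell (median 0.07), against 2 and 2 without DKK1-SE+/+ replicate 2. ACAD9 was at 23.2, 25.6 and 21.7 TPM against 40.1, 41.0 and 38.9 TPM, with all DKK1-SE-/- samples above (log2 fold change 1.02, SE 0.108, edgeR adjusted p = 5.41e-05, n = 3 and 3). TIMMDC1 (0.52) and DMAC2 (0.52) rose and were not called without DKK1-SE+/+ replicate 2 (0.46 and 0.45, adjusted p 0.0599 and 0.0586, highest over the alternatives 0.142 and 0.127). The methyltransferase NDUFAF7 fell (-0.70), and TMEM126B fell (-0.51) but was at 0.03 with the GC-content offset, and at -0.30 and -0.42 without DKK1-SE+/+ or DKK1-SE-/- replicate 1 (adjusted p 0.213 and 0.0912, highest 0.900). For complex II, 1 of 4 rose (median 0.04): SDHAF2, which helps to attach the flavin of SDHA (0.45), not called without DKK1-SE+/+ replicate 2 or 3 or DKK1-SE-/- replicate 2 (0.35, 0.46 and 0.33, adjusted p 0.153, 0.0839 and 0.139, highest 0.204). For complex III, 1 of 6 fell (median 0.15, with 1 higher and 2 lower without DKK1-SE-/- replicate 3), LYRM7, a factor for the Rieske protein (-0.80, and -0.26 with the GC-content offset, adjusted p 0.0582, highest 0.102).

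For complex IV, 1 of 24 assembly factors rose and 3 fell (median log2 fold change -0.07), beside 19.8% and 19.5% of all tested genes. Without DKK1-SE-/- replicate 3 there were 4 and 4 (median -0.02, all genes 24.1% and 25.4%). COX17, which delivers copper, was at 112.1, 102.9 and 94.3 TPM against 132.2, 237.2 and 162.9 TPM, with the groups apart (log2 fold change 1.00, SE 0.196, edgeR adjusted p = 0.00242, n = 3 and 3). COX15, an enzyme of heme A synthesis, fell (-0.54), as did COX20 (-0.72). With the GC-content offset COX15 was at -0.315 and COX20 at -0.289, both called. LRPPRC, which stabilises mitochondrial messenger RNAs, fell (-0.46) and kept its call in 5 of 18 alternatives, losing it without any 1 of the libraries other than DKK1-SE-/- replicate 3 (log2 fold changes -0.45, -0.45, -0.49, -0.29 and -0.46, highest adjusted p over the alternatives 0.223). LRPPRC was at -0.17 with the GC-content offset (adjusted p 0.201). For complex V, 1 of 6 rose and 1 fell (median 0.17). TMEM70 rose (0.45) and was not called without DKK1-SE+/+ replicate 1 or 2 (0.41 and 0.42, adjusted p 0.0770 and 0.0761, highest 0.174), and TMEM242 fell (-1.13).

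Of 5 related subunits that the name rule left out, 1 fell and 4 were not called (median log2 fold change 0.03). CYCS, cytochrome c itself, was at 144.9, 164.0 and 134.2 TPM against 77.8, 89.5 and 128.0 TPM, with all DKK1-SE-/- samples lower. It fell by 0.55 on the log2 scale (SE 0.122, edgeR adjusted p = 0.00496, n = 3 and 3), and by 0.24 with the GC-content offset. The acyl carrier protein NDUFAB1 (0.16), COX7A2L (0.03), NDUFA4L2 (-0.01) and the ATPase inhibitor ATP5IF1 (0.17) were not called. NDUFAB1 was called higher without DKK1-SE-/- replicate 3 (0.27), and COX7A2L with the GC-content offset (0.50).

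The subunits encoded by mitochondrial DNA mostly rose: 11 of 13 rose in edgeR and 12 in DESeq2, 0 fell in either (also at an unadjusted p under 0.05), and all 13 log2 fold changes were above 0 (median 0.55). Of all tested genes, 19.8% rose and 19.5% fell in edgeR. The share of counts on mitochondrially encoded genes was 5.48%, 6.38% and 6.28% in the DKK1-SE+/+ samples and 8.58%, 7.31% and 7.40% in the DKK1-SE-/- samples. Each DKK1-SE-/- library had more than each DKK1-SE+/+ library. MT-ND2, a membrane-arm subunit of complex I, was at 4073, 4648 and 4548 TPM against 7036, 6135 and 6019 TPM (log2 fold change 0.70, SE 0.120, edgeR adjusted p = 0.00107, n = 3 and 3). MT-ATP8 (0.70) and MT-ND3 (0.61) also rose, and MT-CO1 (0.30) and MT-CO2 (0.33) were not called, except, among single libraries left out, without DKK1-SE-/- replicate 3 (0.41 and 0.39). The number called ranged from 1 to 13 over the alternatives, with 1 in limma-trend on log2(TPM + 1), 8 to 13 without single libraries and 5 without both libraries that stood apart, and the median from 0.29 to 0.67. In these fits 9.82%, 13.1% to 24.1% and 8.08% of all genes were higher.

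Of 13 citric acid cycle enzymes, 3 rose and 4 fell (median log2 fold change 0.12), beside 19.8% and 19.5% of all tested genes. Without any 1 of the DKK1-SE+/+ replicates 0 were higher and 1 lower (all genes 13.1% to 15.3% and 13.3% to 15.2%). Without DKK1-SE-/- replicate 1 there were 1 and 3 (all genes 16.5% and 18.1%), as without replicate 2 (15.1% and 15.4%). Without DKK1-SE-/- replicate 3 there were 6 and 4 (24.1% and 25.4%). SUCLG2, the GTP-forming subunit of succinyl-CoA ligase, was at 48.9, 48.4 and 46.6 TPM against 18.5, 21.4 and 25.6 TPM, well apart (log2 fold change -1.03, SE 0.113, edgeR adjusted p = 6.76e-05, n = 3 and 3). SUCLG1, the shared alpha subunit (-0.36), and SUCLA2, the ATP-forming beta subunit (-0.46), fell, and fumarase, FH, fell too (-0.33). DLD (0.49) and OGDH (0.35), parts of the oxoglutarate dehydrogenase complex, and IDH3G (0.42) rose. Some of these calls were lost when single libraries were left out: SUCLG1 without any of the DKK1-SE+/+ replicates (log2 fold changes -0.32, -0.36 and -0.39), SUCLA2 and IDH3G without any library but DKK1-SE-/- replicate 3 (-0.50 to -0.36 and 0.30 to 0.47), DLD without any DKK1-SE+/+ replicate or DKK1-SE-/- replicate 2 (0.48 to 0.50), OGDH without any DKK1-SE+/+ replicate or DKK1-SE-/- replicate 1 (0.21 to 0.41), and FH without any of the DKK1-SE+/+ replicates (-0.28, -0.31 and -0.39). With the GC-content offset SUCLA2 was at 0.00, FH at -0.14, IDH3G at 0.21 and OGDH at 0.18, none of them called. DLD was at 0.95 and called with that offset, and at 0.24 and not called with limma-trend on log2(TPM + 1).

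Of 12 regulators of respiratory genes, 11 were tested, 1 rose and 2 fell (median log2 fold change -0.13), beside 19.8% and 19.5% of all tested genes. There were 2 higher and 5 lower without DKK1-SE-/- replicate 3 (all genes 24.1% and 25.4%) and 0 and 3 without DKK1-SE-/- replicate 1 (16.5% and 18.1%). Without any other single library there were 0 and 1 (13.1% to 15.3% and 13.3% to 15.4%). Besides GABPA, the coactivator PPARGC1B fell by 0.38 on the log2 scale (edgeR adjusted p = 0.0471, n = 3 and 3), and the nuclear receptor ESRRA rose (0.40, edgeR adjusted p = 0.0488). PPARGC1B kept its call in 6 of 18 alternatives and ESRRA in 5. Single libraries ended them: PPARGC1B was at -0.40, -0.39, -0.34 and -0.30 without DKK1-SE+/+ replicate 1, 2 or 3 or DKK1-SE-/- replicate 2, and ESRRA at 0.44, 0.33, 0.45, 0.28 and 0.36 without DKK1-SE+/+ replicate 1, 2 or 3 or DKK1-SE-/- replicate 1 or 2. ESRRA was at 0.11 with the GC-content offset. Not called were PPRC1 (-0.27), NRF1 (0.19), YY1 (-0.06), GABPB1, the partner of GABPA (-0.13), MYC (0.08) and the mitochondrial transcription factors TFAM (-0.21), TFB2M (-0.27) and POLRMT (0.30). With the GC-content offset TFAM (0.32) and GABPB1 (0.33) were called higher and PPRC1 lower (-0.44), and TFB2M (0.04) and POLRMT (-0.03) changed sign without a call. Without DKK1-SE-/- replicate 3 TFAM (-0.38), GABPB1 (-0.33) and TFB2M (-0.35) were called lower and POLRMT higher (0.42), and without DKK1-SE-/- replicate 1 PPRC1 was called lower (-0.39). PPARGC1A was at no more than 0.09 TPM and was not tested.

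Of 7 carriers of nucleotides and phosphate, 1 rose and 2 fell (median log2 fold change -0.01), beside 19.8% and 19.5% of all tested genes. There were 2 higher without DKK1-SE-/- replicate 3 (all genes 24.1%) and 3 lower without DKK1-SE-/- replicate 2 (15.4%). The outer membrane channel VDAC2 rose (0.64), and VDAC3 (-0.83) and the ADP/ATP carrier SLC25A4 (-0.80) fell, each in all 18 alternatives. Of 78 mitochondrial ribosomal proteins, which make the mitochondrially encoded subunits, 7 rose and 14 fell (median 0.03), beside 19.8% and 19.5% of all tested genes. Without DKK1-SE-/- replicate 3 there were 28 higher and 18 lower (median 0.10, all genes 24.1% and 25.4%). Without DKK1-SE+/+ replicate 1 there were 8 and 8 (13.9% and 14.1%), and without DKK1-SE+/+ replicate 2 7 and 8 (13.1% and 13.3%). Without both libraries that stood apart there were 1 and 5 (8.08% and 8.54%). Without DKK1-SE-/- replicate 2 the median was -0.11. MRPL28 (0.82), MRPL16 (0.53) and MRPS16 (0.52) rose, and MRPL39 (-1.30), MRPL19 (-1.15) and MRPL35 (-0.82) fell. With the GC-content offset MRPL19 was at -0.645 and MRPL35 at -0.445. Of 81 tested cytosolic ribosomal proteins among 83, 5 rose and 6 fell (median -0.12), beside 19.8% and 19.5% of all tested genes. Without DKK1-SE-/- replicate 2 there were 3 higher and 25 lower (median -0.30, all genes 15.1% and 15.4%). Without DKK1-SE-/- replicate 3 there were 10 and 6 (median 0.00, all genes 24.1% and 25.4%), and without DKK1-SE+/+ replicate 1 7 and 4 (13.9% and 14.1%). Leaving out DKK1-SE+/+ replicate 2 (13.1% and 13.3%) or 3 (15.3% and 15.2%) gave 3 and 6 each. Leaving out both libraries that stood apart gave 2 and 10 (8.08% and 8.54%), and limma-trend on log2(TPM + 1) 3 and 13 (9.82% and 17.6%). RPL24 (0.82), RPL39L (0.80) and RPL9 (0.69) rose, and RPS24 (-1.02), RPL14 (-0.74) and RPSA (-0.58) fell. Of the ribosomal genes named here, MRPS16, MRPL16 and RPL9 were each called in 17 of 18 alternatives and the others in all 18.

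Reads of some members could not be assigned with certainty. The span of 52 of the 85 genes overlaps another annotated gene, 4 of the 8 called ones among them, and the strand use of the counting was not stated. ATP5PF overlaps GABPA and JAM2 on the opposite strand. Named pseudogenes exist for 48 members, 176 in all, and held 0.401% as many counts as the members they derive from, most of them on those of SDHA.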

How the data were processed

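RNA of 3 DKK1-SE-/- and 3 DKK1-SE+/+ samples was measured by stranded mRNA sequencing at Majorbio. The deposited table gives expected counts without normalization, of which 32.3% of nonzero values are not whole (tolerance 1e-06). It also gives deposited TPM, scaled to each library by the authors, and the authors' transcript length in bases. The aligner, the counting program and the annotation are not given in the sources used here, and the genome build is hg38. The authors' group mean TPM and their linear and log2 fold changes, p-values, adjusted p-values and calls in the same table were not used.

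Expected counts were rounded and fitted in edgeR 4.0.16 (R 4.3.3) with filterByExpr (minimum count 10), TMM factors and the quasi-likelihood F test, and p-values were adjusted by the Benjamini-Hochberg method over 15179 tested genes. Total counts were 16475810 to 21822314 per sample, and the precision is given by the standard errors of the fit (median 0.173 for the members), which include the spread between samples. Positions came from GENCODE 44 (62625 genes placed) and promoters from RefSeq. Tables and figures were made in Python 3.11.15 (pandas 2.3.3, numpy 2.4.6, scipy 1.17.1, matplotlib 3.10.9).

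The members and lists were chosen with earlier results of these data known. The lists were assembly factors of each complex, related subunits outside the name rule, mitochondrially encoded subunits, citric acid cycle enzymes, regulators, carriers, mitochondrial and cytosolic ribosomal proteins, and markers of ductal, mesenchymal, acinar, islet, immune, endothelial and fibroblast cells. Named were, per complex, up to 4 called genes per direction by p and the 2 with the highest mean TPM, all complex II subunits, isoform sets, members at 0, in each other list up to 3 called genes per direction, all related subunits and regulators, and DKK1. FH, MT-CO1, MT-CO2 and the other genes so described were chosen after their values were seen.

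Alternatives were DESeq2 1.42.0, RLE size factors, library size alone, no filter beyond a count of 1, a mean TPM of at least 1, a block for the replicate number, each sample left out in turn, limma-trend (limma 3.58.1) on log2(TPM + 1) or log2(TPM + 0.1), offsets for GC content (with and without the block) or length in 40 bins, and, as call rules on the edgeR fit and not counted among the 18 alternative fits, an unadjusted p under 0.05 with a fold limit of 1.2 on the log2 or linear scale. Leaving out both libraries highest in ribosomal protein genes, and the neighbour windows, were chosen after seeing the data. The fits were tested on simulated data with 200 changed genes, where edgeR made 14 false calls over 15179 genes. It recovered 74 of 100 genes changed 2-fold and 92 of 100 changed 4-fold, and smaller changes were not simulated. In the measured data 39.3% of tested genes were called, far more than were changed in the simulation. The simulated number of false calls therefore does not carry over to the measured data. With a GC trend simulated, edgeR made 173 false calls without the GC-content offset and 14 with it.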

Additional observations from a re-analysis of the deposited data

How the results depend on the processing

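ATP5PF, ATP5PO and NDUFB4 kept their direction and call in all 18 alternative fits judged by adjusted p, and none passed the log2 limit of 1.2 with unadjusted p in edgeR. The number of members called higher, 4, was 2 with limma-trend on log2(TPM + 1) and 2 on log2(TPM + 0.1), 10 with the GC-content offset, 11 with that offset and the replicate block, 1 without both libraries highest in ribosomal protein genes and 0 when the call was an unadjusted p under 0.05 with an absolute log2 fold change of 1.2, which changes both the p and the fold. The number called lower, 4, was 8 with DESeq2, 11 with no filter beyond a count of 1, 11 in both limma-trend fits, 7 with the GC-content offset with or without the block, 12 with the length offset, 0 at that log2 limit with unadjusted p and 8 at a linear fold change of 1.2 with unadjusted p. Without single libraries the members called higher ranged from 2 to 15 and lower from 2 to 14. Of all tested genes, 3013 higher became 1491 and 1493 in the limma-trend fits, 1226 without both libraries and 753 at the log2 limit. Without single libraries they ranged from 1986 to 3662. All tested genes called lower, 2959, became 3043 with DESeq2, 3147 of the same 15179 with no filter and 2746 with the GC-content offset. They were 2670 and 2632 in the limma-trend fits and 1296 without both libraries. At the log2 limit they were 561, and at the linear limit with unadjusted p 3531.

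The median log2 fold change of complex II (-0.036) was -0.197 and -0.199 in the limma-trend fits and 0.139 and 0.134 with the GC-content offset without and with the replicate block. The median log2 fold change of complex V ranged from -0.317 to 0.060 without single libraries. With the GC-content offset, without and with the replicate block, the SDHD log2 fold change was 0.360 and 0.362, the TMEM126B log2 fold change 0.029 and 0.051, the SUCLA2 log2 fold change 0.001 and 0.004, the TFAM log2 fold change 0.317 and 0.317 and the GABPB1 log2 fold change 0.328 and 0.323, each against a negative value without the offset. Same-numbered samples of the groups did not deviate together (r = -0.123, -0.074 and -0.109), and over all pairs across the groups r ran from -0.123 to 0.153. With deviations taken from means of 3 samples, these values cannot decide whether replicate numbers pair the samples. The causes of these differences were not tested. Over all results and alternatives, 1191 kept their direction and side of the threshold or moved by less than the spread, 146 lost a call, 33 gained one, 60 moved further and 10 reversed. The counts of 7 members were too low to be tested.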
